A study of Mus musculus with 8 samples.

Results

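The 9 genes described here make up a signalling branch that cytokines switch on in T cells and its brakes: the kinase Jak3, the transcription factors Stat5a and Stat5b, the suppressors Cish, Socs1, Socs2 and Socs3, and the survival kinases Pim1 and Pim2. They were chosen by symbol, as every probe set that the platform annotation gives to these names, and were read on 8 mouse arrays in 4 groups. All 9 passed the filter on low values and stand among the 12520 genes tested. They are covered by 19 probe sets that name 1 gene, of which 16 passed the filter, and by 2 more probe sets annotated to both Jak3 and Insl3, of which 1 passed.

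The study asked how the loss of PKC theta, or of p50 and cRel together, alters transcripts of activated CD8 T cells. CD8 T cells of C57BL/6 mice were pulled from spleens with beads that bind the cells to be kept, and met dendritic cells (DCs) grown from bone marrow for 18 hours, with 10 T cells to each DC. The groups were cells without p50 and cRel, a pair of NF-kB subunits, with DCs that carried the ovalbumin peptide SIINFEKL (p50 cRel DKO N4), cells lacking the kinase PKC theta with the same peptide-loaded DCs (PKC theta KO N4), wild-type cells with those DCs (WT N4), and wild-type cells with DCs without peptide (WT UN). Each group had 2 arrays, made from 100 ng of total RNA per sample after DCs had been taken out through their surface protein CD11c. Neither knockout was cultured without peptide, so peptide and genotype both differ in any comparison of a knockout with WT UN. The labels give no age, do not name the antigen receptor of the T cells, and leave unsaid if a group's 2 arrays stem from different mice or cultures, so p-values weigh only sample-to-sample spread, some of which may be technical.

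Interleukin-2 and related cytokines bind receptors that share the common gamma chain, to which JAK3 is attached. JAK3 and JAK1 then phosphorylate STAT5A and STAT5B, which move to the nucleus and bind DNA at a palindrome called a GAS element. Among the best known STAT5 targets in lymphocytes are genes of the CIS and SOCS proteins, which damp the receptor, and of the PIM kinases, which favour growth and survival.

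The start regions of 3 genes are shown because they hold the motifs that bear on this branch. RefSeq windows of assembly GRCm38.p6, running from 250 bases before to 50 bases after an annotated transcript start, were found for 8 of the 9 genes (11 windows), with Socs2 missing. Capitals mark matches to the GAS letters TTCNNNGAA, which read the same on both strands, or to the kB consensus of NF-kB, searched on both strands. No match of one motif overlaps a match of the other in the windows printed.
Cish, chr9:107296409-107296708, plus strand: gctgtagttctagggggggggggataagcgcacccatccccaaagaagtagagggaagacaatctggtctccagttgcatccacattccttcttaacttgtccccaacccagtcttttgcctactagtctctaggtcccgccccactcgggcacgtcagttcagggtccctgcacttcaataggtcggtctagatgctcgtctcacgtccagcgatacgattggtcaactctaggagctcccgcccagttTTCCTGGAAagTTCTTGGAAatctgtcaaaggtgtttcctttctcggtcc
Socs3, chr11:117969317-117969616, minus strand: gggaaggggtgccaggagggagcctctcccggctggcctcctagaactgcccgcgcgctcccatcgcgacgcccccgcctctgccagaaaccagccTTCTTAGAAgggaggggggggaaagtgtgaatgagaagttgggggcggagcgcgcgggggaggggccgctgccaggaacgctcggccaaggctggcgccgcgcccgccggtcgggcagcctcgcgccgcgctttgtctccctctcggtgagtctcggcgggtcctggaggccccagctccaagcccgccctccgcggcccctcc
Stat5a, chr11:100860234-100860533, plus strand: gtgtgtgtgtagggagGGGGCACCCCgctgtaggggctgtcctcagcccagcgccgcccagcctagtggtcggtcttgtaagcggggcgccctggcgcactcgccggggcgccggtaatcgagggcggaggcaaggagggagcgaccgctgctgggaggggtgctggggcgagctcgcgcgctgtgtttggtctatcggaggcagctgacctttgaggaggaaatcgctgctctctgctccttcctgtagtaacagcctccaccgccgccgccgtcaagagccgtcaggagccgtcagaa
Cish held 2 GAS matches, TTCCTGGAA beginning at the start itself (position 0) and TTCTTGGAA at position 11. Socs3 held 1, TTCTTAGAA at position -154. A GAS match stood in 8.30% of all 32851 mouse windows of this length, and 2 or more stood in 0.457%. The kB consensus matched in 1 window of Stat5a, as GGGGCACCCC at position -234, and in 8.46% of all windows. A match is a run of letters and not shown to be a bound site, and a window without one says nothing of the factor.

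Signals are given on the log2(signal + 16) scale unless said otherwise, as array 1 and then array 2 of a group, and a gene is represented by its brightest probe set. A difference counts as changed at a limma p under 0.05 after Benjamini-Hochberg adjustment over all 12520 genes. At an unadjusted limma p under 0.05 stood 371 of the 12520 genes for PKC theta KO N4 minus WT N4. The number was 788 for p50 cRel DKO N4 minus WT N4 and 897 for p50 cRel DKO N4 minus PKC theta KO N4. Differences on this scale understate the change of dim genes. The whole arrays had median signals between 33.6 and 70.3, and the number of arrays limits the precision. Rel, which encodes cRel, read 6.19 and 5.92 in p50 cRel DKO N4 cells, against 9.82 and 9.53 in WT N4 cells, and 9.63 and 8.97 in PKC theta KO N4 cells. Prkcq, which encodes PKC theta, differed by -0.66 between PKC theta KO N4 and WT N4 cells, which did not pass (limma adjusted p = 1.00). Whether its probes lie in the deleted stretch is not known here, so this does not check the label. The Y-linked gene Eif2s3y read 5.42 and 5.88 in p50 cRel DKO N4, 6.73 and 5.51 in PKC theta KO N4, 10.78 and 11.20 in WT N4, and 11.06 and 10.65 in WT UN samples, so sex and genotype cannot be told apart in the knockout comparisons below. Xist, expressed from the inactive X chromosome of females, was high on all 4 knockout arrays (12.27 to 12.57) and also on WT UN replicate 2 (11.84), which set that array apart from WT UN replicate 1 (6.05).

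Between WT N4 and WT UN cells 1 of the 9 genes changed, each read on its brightest probe set. Cish rose in WT N4 cells relative to WT UN cells, none of the 9 fell, and 8 did not pass. Of all genes tested, 40.7% passed this comparison, 17.2% higher and 23.5% lower, and 11.1% of the 9 genes did. The count depends on the probe set. When all 27022 probe sets were fitted together, 29.4% passed, as did 5 of the 16 probe sets of the 9 genes. They belong to Cish, Stat5a and Stat5b, which rose, and to Socs3, which fell. The median difference of the 9 genes was 0.34, against -0.10 over all genes. The groups did not overlap for 6 of the 9. The share of all genes without overlap was not counted, so this count and the like ones below are descriptions only.

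Other cells differed strongly between these 2 groups, which touches each of the values against WT UN. The CD8 markers Cd8a and Cd8b1 summed to linear signals of 10816 to 12366 in WT N4 samples and 7832 to 9423 in WT UN samples, so the labelled cell type was present in both. Summed over 14 B cell markers, the signal was 1162 to 3926 in WT N4 samples and 45503 to 66168 in WT UN samples, and 14 of 14 fell. Over 24 markers of dendritic cells and macrophages it was 9740 to 12974 in WT N4 samples and 82345 to 102626 in WT UN samples, and 20 of 24 fell. Over 7 neutrophil markers it was 292 to 856 in WT N4 samples and 23804 to 26288 in WT UN samples, and 7 of 7 fell. None of these markers reads 0, and their part in the results against WT UN was not tested. In bulk samples, fewer cells of a type and less RNA per cell cannot be told apart.

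**Figure D1:**
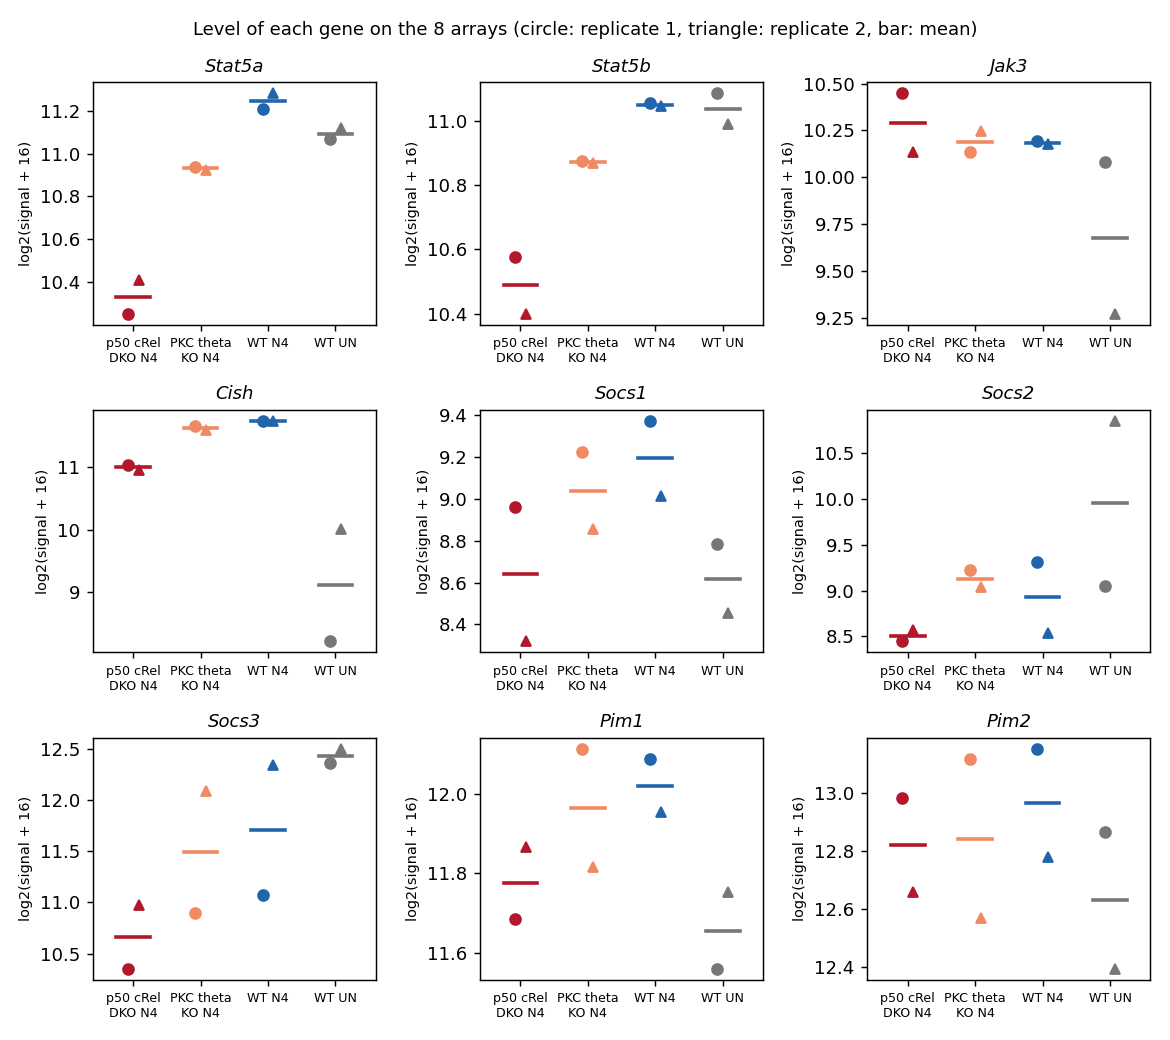
Level of each of the 9 genes on every array, as log2(signal + 16) on an axis of its own per gene, with circles for replicate 1, triangles for replicate 2 and bars for the mean of 2. Stat5a of p50 cRel DKO N4 cells (10.25 and 10.41) lies under the other groups, Cish of WT UN cells (8.22 and 10.01) lies under the other groups, and Socs3 spans 11.07 to 12.35 within WT N4.

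Of the kinase and the transcription factors, none passed the test between WT N4 and WT UN cells on its brightest probe set. Jak3, the kinase on the common gamma chain, read 10.45 and 10.14 in p50 cRel DKO N4, 10.13 and 10.25 in PKC theta KO N4, 10.19 and 10.18 in WT N4, and 10.08 and 9.27 in WT UN cells. The 6 arrays with peptide all lay above both WT UN arrays, which themselves lay far apart. Its difference between WT N4 and WT UN was 0.51 (SE 0.25, limma adjusted p = 0.143, 95% interval -0.06 to 1.08). Without WT UN replicate 1 that difference was 0.91 and passed (limma adjusted p = 0.0142), and without WT UN replicate 2 it was 0.11 (0.753). Against WT UN the difference was 0.62 in p50 cRel DKO N4 cells and 0.51 in PKC theta KO N4 cells, neither past the test. Both passed without WT UN replicate 1, at 1.02 in p50 cRel DKO N4 (limma adjusted p = 0.0097) and 0.92 in PKC theta KO N4 cells (0.0139), and without WT UN replicate 2 they were 0.21 in p50 cRel DKO N4 and 0.11 in PKC theta KO N4 cells. The probe set shared by Jak3 and Insl3 read 9.69 and 10.20 in WT N4 cells and 10.51 and 9.61 in WT UN cells, so its groups overlapped.

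Stat5a, which encodes a STAT5 protein, read 10.25 and 10.41 in p50 cRel DKO N4, 10.94 and 10.92 in PKC theta KO N4, 11.21 and 11.28 in WT N4, and 11.07 and 11.12 in WT UN cells. In linear signal these were 1206 and 1345 in the double knockout, 1948 and 1926 in the PKC theta knockout, 2349 and 2471 in WT N4, and 2130 and 2206 in WT UN cells. The 4 groups did not overlap at any step of that order, with the double knockout lowest and WT N4 highest.

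Stat5a fell in p50 cRel DKO N4 cells relative to WT N4 cells by 0.91 (SE 0.13, 95% interval -1.21 to -0.61, limma adjusted p = 0.0242), which leaves 0.532 of the WT N4 level. It was the 1 gene of the 9 to pass in this comparison, in which 0.519% of all genes passed, 0.272% lower. The call rests on all 4 arrays compared. Leaving out p50 cRel DKO N4 replicate 1 gave a limma adjusted p of 0.306, leaving out its replicate 2 gave 0.163, leaving out WT N4 replicate 1 gave 0.107 and leaving out its replicate 2 gave 0.180, while the difference itself stayed between -0.99 and -0.83. It also missed the threshold when all probe sets were fitted together (limma adjusted p = 0.0524), with the 4 arrays alone (0.0545), without the mean-variance trend (0.0921) and after median centring (0.403).

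Stat5b, the close relative of Stat5a and its neighbour on chromosome 11, read 10.58 and 10.40 in p50 cRel DKO N4, 10.87 and 10.87 in PKC theta KO N4, 11.06 and 11.05 in WT N4, and 11.09 and 10.99 in WT UN cells. Both double knockout arrays lay under all others and the PKC theta knockout arrays came next, while WT N4 and WT UN overlapped. Between p50 cRel DKO N4 and WT N4 cells the difference was -0.56 (SE 0.13, 95% interval -0.87 to -0.26, limma adjusted p = 0.179), which did not pass. Between WT N4 and WT UN cells it was 0.01 (limma adjusted p = 0.957, 95% interval -0.29 to 0.32), and it turned to -0.04 with quantile normalization.

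For Stat5a and Stat5b the probe sets of 1 gene gave unlike differences between WT N4 and WT UN cells. With the probe sets of each gene averaged, Stat5a rose by 0.43 (limma adjusted p = 0.0390) and Stat5b by 0.65 (0.0105). A second probe set of Stat5b (1422102_a_at) read 8.05 and 8.30 in p50 cRel DKO N4, 8.43 and 8.56 in PKC theta KO N4, 8.51 and 9.06 in WT N4, and 7.37 and 7.64 in WT UN cells, so that WT UN lay lowest. In the fit of all 27022 probe sets, where 29.4% passed between WT N4 and WT UN, it rose by 1.28 (limma adjusted p = 0.0061), against 0.01 for the probe set of the main results (1422103_a_at, 0.962). The second probe set of Stat5a (1450259_a_at) read 9.46 and 8.93 in p50 cRel DKO N4, 9.84 and 9.74 in PKC theta KO N4, 10.19 and 9.89 in WT N4, and 9.44 and 9.23 in WT UN cells, and rose by 0.71 in WT N4 relative to WT UN cells (limma adjusted p = 0.0427). In p50 cRel DKO N4 cells, in contrast, both probe sets of both genes pointed down from WT N4. The differences were -0.91 and -0.85 for Stat5a and -0.56 and -0.61 for Stat5b. None of these passed in the fit of all probe sets, where 0.226% did (lowest limma adjusted p = 0.0524). At an unadjusted limma p under 0.05 stood 6 of the 16 probe sets of the 9 genes, which belong to Stat5a, Stat5b and Socs3 only. The share of all probe sets at that level was not counted. The probe sequences were not used here.

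**Figure D2:**
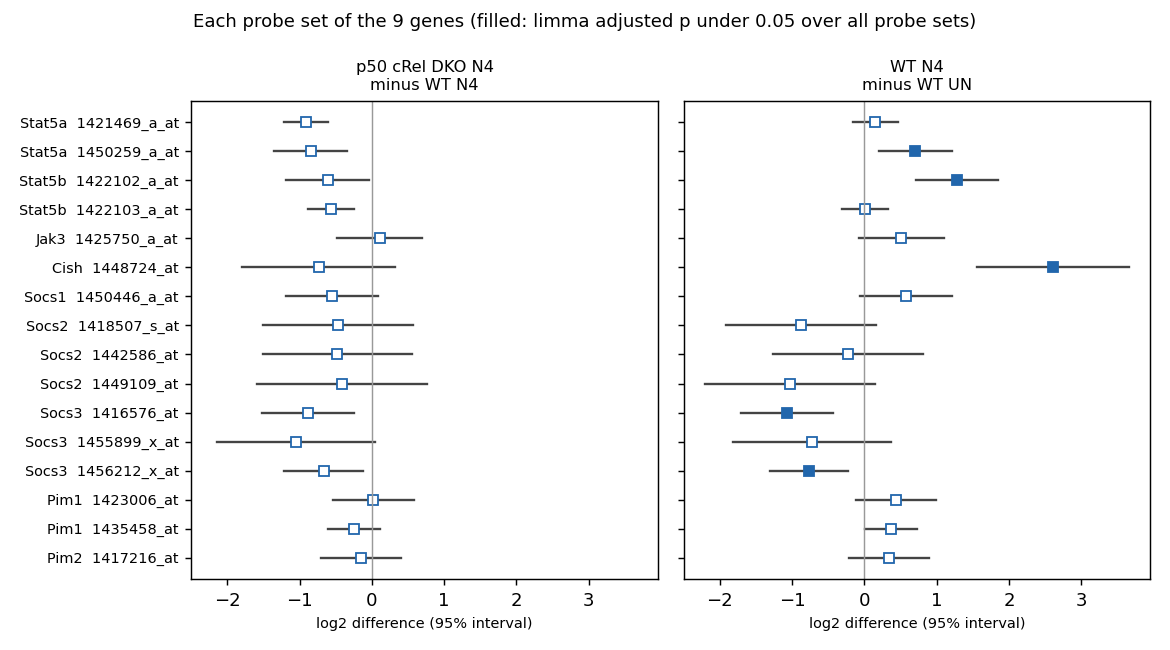
Difference of group means of each of the 16 probe sets of the 9 genes past the filter, on the log2(signal + 16) scale in 2 comparisons, with lines for 95% intervals and filled squares for a limma adjusted p under 0.05 over all probe sets. Between WT N4 and WT UN the Stat5b probe set 1422102_a_at differs by 1.28 and 1422103_a_at by 0.01, while the 3 Socs3 probe sets are all lower in WT N4.

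Cish encodes CIS, an SH2-domain protein that damps cytokine and antigen receptor signals. It gave the widest span of the 9 genes, 2.61 between the highest and the lowest group mean. Its linear signals were 2068 and 1965 in p50 cRel DKO N4, 3201 and 3059 in PKC theta KO N4, 3362 and 3379 in WT N4, and 283 and 1014 in WT UN cells. On the log2 scale these were 11.02 and 10.95 in p50 cRel DKO N4, 11.65 and 11.59 in PKC theta KO N4, 11.72 and 11.73 in WT N4, and 8.22 and 10.01 in WT UN cells. Every array with peptide lay above both WT UN arrays, and the double knockout lay between the other peptide groups and WT UN.

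Relative to WT UN, Cish rose by 2.61 in WT N4 cells (SE 0.45, 95% interval 1.59 to 3.63, limma adjusted p = 0.0020), a 6.11-fold difference. The 2 WT UN arrays were far apart, and the value was 1.72 without WT UN replicate 1 and 3.50 without WT UN replicate 2. It passed in every alternative setting tried and with each of the 8 arrays left out. Cish carries the 2 GAS matches printed above, whose part in this difference was not tested.

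Against the same WT UN arrays, Cish rose by 2.50 in PKC theta KO N4 cells (limma adjusted p = 0.0025) and by 1.87 in p50 cRel DKO N4 cells (limma adjusted p = 0.0105), or 5.67-fold and 3.66-fold. Without WT UN replicate 1 these were 1.61 in PKC theta KO N4 and 0.98 in p50 cRel DKO N4 cells, and without WT UN replicate 2 they were 3.40 in PKC theta KO N4 and 2.77 in p50 cRel DKO N4 cells, all past the test. Without p50 cRel DKO N4 replicate 1 the double knockout's call was lost (limma adjusted p = 0.0553). Directly compared, p50 cRel DKO N4 and WT N4 cells differed by -0.74, with groups that did not overlap, and the 95% interval of -1.76 to 0.29 holds 0. For PKC theta KO N4 against WT N4 cells the difference was -0.11 with an interval of -1.13 to 0.92.

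Socs1, which inhibits JAK kinases directly, read 8.96 and 8.32 in p50 cRel DKO N4, 9.23 and 8.85 in PKC theta KO N4, 9.37 and 9.01 in WT N4, and 8.78 and 8.45 in WT UN cells. Array 1 was above array 2 in all 4 groups, and WT N4 did not overlap with WT UN. The difference between them was 0.58 (SE 0.27, 95% interval -0.04 to 1.19, limma adjusted p = 0.124), and quantile normalization gave 0.91, which passed (limma adjusted p = 0.0451). The double knockout lay 0.55 under WT N4 without passing (difference -0.55, interval -1.17 to 0.06, limma adjusted p = 0.900), and leaving out 1 array moved that difference between -0.87 and -0.23, the extremes being p50 cRel DKO N4 replicates 1 and 2.

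Socs2, best known for damping growth hormone signals, read 8.45 and 8.57 in p50 cRel DKO N4, 9.22 and 9.04 in PKC theta KO N4, 9.31 and 8.54 in WT N4, and 9.05 and 10.85 in WT UN cells. WT UN replicate 2 stood far above all other arrays, also on the probe set 1418507_s_at (10.20 there, at most 8.84 on every other array). WT N4 overlapped with WT UN, and their difference of -1.03 did not pass (SE 0.50, limma adjusted p = 0.139). It was -1.93 and passed without WT UN replicate 1 (limma adjusted p = 0.0040), but -0.13 without WT UN replicate 2 (0.814). Of its 6 probe sets 3 passed the filter, and all 3 differed downward in WT N4 relative to WT UN cells, by -0.22 to -1.03, without passing. The remaining 3, under the filter, had linear signals of 1.42 to 71.0 over the 8 arrays.

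Socs3, which binds the gp130 family of receptors and blocks JAK kinases, read 10.35 and 10.98 in p50 cRel DKO N4, 10.90 and 12.09 in PKC theta KO N4, 11.07 and 12.35 in WT N4, and 12.37 and 12.51 in WT UN cells. Array 2 was above array 1 in all 4 groups, and the WT N4 arrays differed from each other more than WT N4 did from WT UN. Between WT N4 and WT UN the difference of this probe set was -0.73 (SE 0.46, 95% interval -1.78 to 0.33, limma adjusted p = 0.254). It was -1.36 and passed without WT N4 replicate 2 (limma adjusted p = 0.0426), and -0.087 without WT N4 replicate 1 (0.912).

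Another probe set of Socs3 (1416576_at) read 9.60 and 9.40 in p50 cRel DKO N4, 10.04 and 10.60 in PKC theta KO N4, 10.07 and 10.71 in WT N4, and 11.68 and 11.23 in WT UN cells, with the double knockout lowest and WT UN highest. It fell in WT N4 relative to WT UN cells by 1.07 in the fit of all probe sets (limma adjusted p = 0.0215), as did 1456212_x_at by 0.77 (limma adjusted p = 0.0423). In p50 cRel DKO N4 relative to WT N4 cells the difference was -1.05 for 1455899_x_at, -0.89 for 1416576_at and -0.67 for 1456212_x_at, and none passed. In p50 cRel DKO N4 relative to WT UN cells all 3 fell, where 28.5% of all probe sets passed. The difference was -1.95 for 1416576_at (limma adjusted p = 0.0016), -1.77 for 1455899_x_at (0.0248) and -1.44 for 1456212_x_at (0.0031). Macrophages also express Socs3, and the myeloid marker sum was 8140 to 8187 in p50 cRel DKO N4 and 82345 to 102626 in WT UN samples. Its part in the result was not tested.

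Pim1, a serine/threonine kinase induced by cytokines, read 11.68 and 11.87 in p50 cRel DKO N4, 12.11 and 11.82 in PKC theta KO N4, 12.09 and 11.95 in WT N4, and 11.56 and 11.75 in WT UN cells. WT N4 lay above WT UN on both arrays, by 0.36 (SE 0.15, 95% interval 0.02 to 0.71), which did not pass (limma adjusted p = 0.0894). Its other probe set differed by 0.44, also without passing. The double knockout lay 0.24 under WT N4 without overlap (difference -0.24, interval -0.59 to 0.10). The other probe set, 1423006_at, differed by 0.019 there (interval -0.54 to 0.58), and the average of both by -0.11.

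Pim2, a related kinase whose gene lies on the X chromosome, read 12.98 and 12.66 in p50 cRel DKO N4, 13.12 and 12.57 in PKC theta KO N4, 13.15 and 12.78 in WT N4, and 12.87 and 12.39 in WT UN cells. Array 1 was above array 2 in all 4 groups, and every pair of groups overlapped. Taken by number, WT N4 lay above WT UN by 0.29 on arrays 1 and by 0.38 on arrays 2. The differences were 0.34 for WT N4 against WT UN (limma adjusted p = 0.299, 95% interval -0.20 to 0.87) and -0.15 for p50 cRel DKO N4 against WT N4 (interval -0.68 to 0.39).

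**Figure D3:**
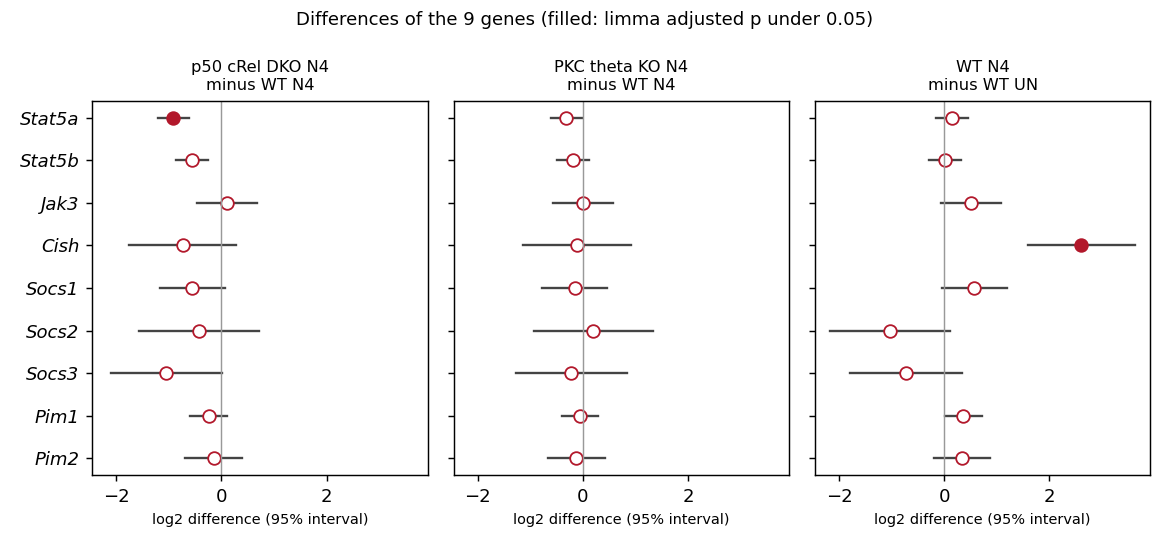
Difference of group means for each of the 9 genes on the log2(signal + 16) scale in 3 comparisons, with lines for 95% intervals and filled points for a limma adjusted p under 0.05. Stat5a (-0.91) is filled for p50 cRel DKO N4 minus WT N4, no gene is filled for PKC theta KO N4 minus WT N4, and Cish (2.61) is filled for WT N4 minus WT UN.

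Between PKC theta KO N4 and WT N4 cells none of the 9 genes passed the limma test, where 0.024% of all genes passed. That share is 3 genes, all lower and all from the list of sex-linked markers that holds Eif2s3y, so no other gene passed. Of the 9, 1 gene stood at an unadjusted limma p under 0.05, Stat5a, with a difference of -0.31 (95% interval -0.61 to -0.01). Of the others, Cish differed by -0.11, Socs3 by -0.22 (interval -1.28 to 0.84), Socs1 by -0.15 (-0.77 to 0.46) and Socs2 by 0.20 (-0.94 to 1.34). Stat5b differed by -0.18 (-0.48 to 0.13), Pim2 by -0.12 (-0.66 to 0.41), Pim1 by -0.06 (-0.40 to 0.29) and Jak3 by 0.01 (-0.57 to 0.58). A p that misses the threshold does not show that the knockout and wild-type cells act alike, and the intervals of the 3 Socs genes are wide. In PKC theta KO N4 cells 7 of the 9 genes lay under WT N4, while 53.5% of all genes lay lower. The median of the 9 was -0.12, against -0.02 over all genes. The groups did not overlap for 3 of the 9, Stat5a, Stat5b and Cish, with no share over all genes counted to set beside this. In the fit of all probe sets, where 0.0148% passed, none of the 16 probe sets of the 9 genes did by limma. At an unadjusted limma p under 0.05 stood 1 of them, with no share of all probe sets counted at that level. The CD8 markers summed to 19710 to 19925 in PKC theta KO N4 samples and 10816 to 12366 in WT N4 samples (0 of 2 passed limma's test, 2 at an unadjusted p under 0.05). The 14 B cell markers summed to 2943 to 5237 in PKC theta KO N4 samples and 1162 to 3926 in WT N4 samples (0 of 14 passed, 3 at an unadjusted p under 0.05), and the part of these markers in the result was not tested.

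In p50 cRel DKO N4 cells 8 of the 9 genes lay under WT N4, while 50.4% of all genes lay lower. The median of the 9 genes was -0.55, against -0.0019 over all genes. The groups did not overlap for 6 of the 9, again without a share over all genes to compare. Beside Stat5a, which fell, the difference was -1.05 for Socs3 (95% interval -2.10 to 0.01), -0.74 for Cish, -0.56 for Stat5b and -0.42 for Socs2 (-1.56 to 0.72), and none of these passed. Socs3 differed by -1.69 without WT N4 replicate 1 and -0.41 without WT N4 replicate 2, and Socs2 by -0.028 without WT N4 replicate 1 and -0.81 without WT N4 replicate 2. Jak3 differed by 0.11 (-0.47 to 0.68). In linear signal, 24 markers of dendritic cells and macrophages summed to 8140 to 8187 in p50 cRel DKO N4 samples and 9740 to 12974 in WT N4 samples, and 0 of 24 passed the limma test (5 at an unadjusted p under 0.05). The 14 B cell markers summed to 3945 to 4057 in p50 cRel DKO N4 samples and 1162 to 3926 in WT N4 samples, and 0 of 14 passed (3 at an unadjusted p under 0.05). The CD8 markers Cd8a and Cd8b1 summed to 14437 to 17890 in p50 cRel DKO N4 samples and 10816 to 12366 in WT N4 samples (0 of 2 passed, 2 at an unadjusted p under 0.05). Over 2 erythroid markers the sum was 268 to 324 in p50 cRel DKO N4 samples and 81.5 to 135 in WT N4 samples (0 of 2 passed, 2 at an unadjusted p under 0.05). Of 5 T cell markers, which summed to 23525 to 29499 in p50 cRel DKO N4 samples and 24146 to 25727 in WT N4 samples, 1 fell, Cd2, by 0.98 (limma adjusted p = 0.0206). Their part in the result was not tested.

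Set directly against each other, the knockouts differed past the limma test in 0 of the 9 genes, where 0.431% of all genes passed, 0.24% higher and 0.192% lower, and in 2 at an unadjusted p under 0.05. These were Stat5a, at -0.60 for p50 cRel DKO N4 minus PKC theta KO N4 (95% interval -0.90 to -0.30, limma adjusted p = 0.147), and Stat5b, at -0.38 (interval -0.69 to -0.08, limma adjusted p = 0.532). The groups did not overlap for 4 of the 9, which were Stat5a, Stat5b, Cish and Socs2. The share of all genes without overlap was not counted here either. For Cish the difference was -0.63 (interval -1.65 to 0.39) and for Socs2 it was -0.62 (interval -1.76 to 0.52).

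Relative to WT UN cells, PKC theta KO N4 cells had 1 of the 9 genes past the test, Cish, where 40.6% of all genes passed. In the fit of all probe sets, where 30.1% passed, Stat5b 1422102_a_at also rose by 0.99 (limma adjusted p = 0.0184), while Socs3 1416576_at fell by 1.13 (0.0168) and 1456212_x_at fell by 0.78 (0.0389). In p50 cRel DKO N4 cells 1 rose, Cish, and 4 fell, where 39.3% of all genes passed, 16.5% higher and 22.8% lower. The 4 were Stat5a by 0.76 (limma adjusted p = 0.0022), Stat5b by 0.55 (0.0112), Socs2 by 1.45 (0.0483) and Socs3 by 1.77 (0.0156). These comparisons use the same WT UN arrays. The Stat5a call was lost with median centring (limma adjusted p = 0.349), and so was that of Stat5b (0.730). For Stat5b the call also went without p50 cRel DKO N4 replicate 2 (0.0837) or WT UN replicate 1 (0.0662), and the difference turned to 0.06 when its probe sets were averaged. The Socs2 call was kept in 4 of 11 alternative settings and with 3 of the 8 arrays left out, and its limma adjusted p reached 0.126 after median centring. Without p50 cRel DKO N4 replicate 1 that p was 0.165, without its replicate 2 it was 0.126, without PKC theta KO N4 replicate 1 it was 0.0642 and without its replicate 2 it was 0.0633. Socs2 differed by -0.55 without WT UN replicate 2 (0.262) and by -2.34 without WT UN replicate 1 (0.0020), and Socs3 lost its call without p50 cRel DKO N4 replicate 1 (0.102) or WT UN replicate 2 (0.0656).

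Upstream of the branch, cytokine genes and receptor chains changed in both directions. Of 21 listed genes of the common gamma chain and beta common families, 15 passed the filter, and 6 rose and 6 fell in WT N4 relative to WT UN cells, where 17.2% of all genes were called higher and 23.5% lower. This list and those below were chosen with earlier results of these data known, so their counts are descriptions only. Il3, a cytokine gene, rose by 6.03. Il7r, the interleukin-7 receptor chain, fell by 3.29, and Csf2rb and Csf2rb2, receptor chains for interleukin-3 and related cytokines that myeloid cells also express, fell by 3.16 (Csf2rb) and fell by 3.69 (Csf2rb2) beside the lower myeloid marker sum of WT N4 samples. In PKC theta KO N4 relative to WT N4 cells none of the 15 passed limma's test, against 0.024% of all genes (2 at an unadjusted p under 0.05), and Il2 differed by -2.22 (limma adjusted p = 0.135). In p50 cRel DKO N4 relative to WT N4 cells Il3 fell by 4.58 and Il2 by 4.12 (limma adjusted p = 0.000984 for each) and the other 13 did not pass, where 0.519% of all genes did.

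Interleukin-2, the cytokine that feeds this branch in activated T cells, read 7.39 and 7.46 in p50 cRel DKO N4, 9.75 and 8.91 in PKC theta KO N4, 11.34 and 11.75 in WT N4, and 7.12 and 7.60 in WT UN cells. The double knockout and WT UN overlapped. Relative to PKC theta KO N4 cells, p50 cRel DKO N4 cells were lower in Il3 by 4.24 and in Il2 by 1.90 and higher in Il7r by 1.12 (limma adjusted p = 0.00255, 0.0416 and 0.0339). Il2ra, a chain of the interleukin-2 receptor and itself a known STAT5 target, read 11.89 and 11.87 in p50 cRel DKO N4, 12.43 and 11.65 in PKC theta KO N4, 12.52 and 12.26 in WT N4, and 8.28 and 8.87 in WT UN cells. It lay high on every array with peptide.

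**Figure D4:**
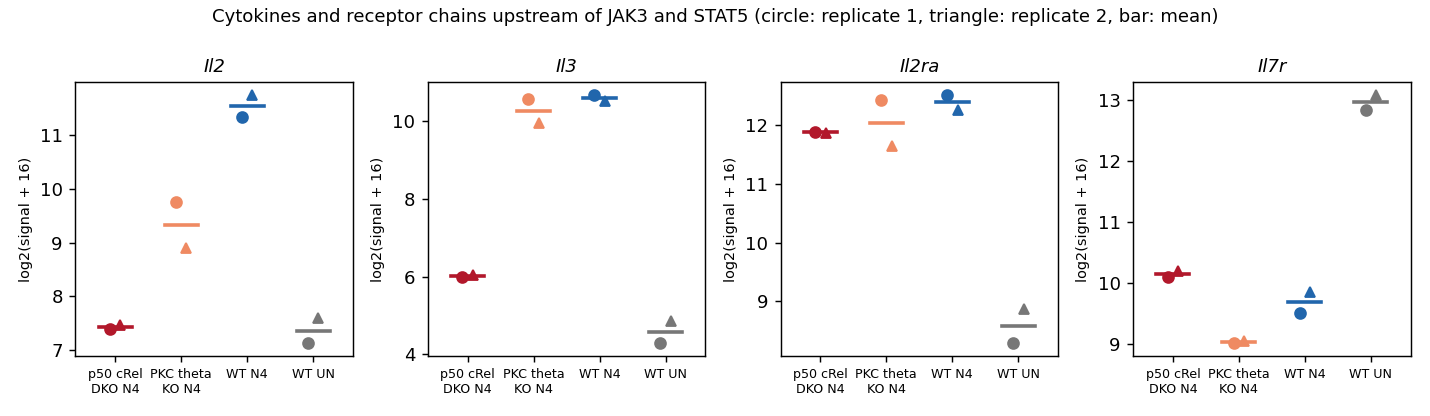
Level of Il2, Il3, Il2ra and Il7r on every array as log2(signal + 16), in the 4 groups, with circles for replicate 1, triangles for replicate 2 and bars for the mean. Il2 and Il3 are high in WT N4 (Il3 10.69 and 10.53) and low in p50 cRel DKO N4 (Il3 6.00 and 6.05), while Il2ra stays above 11 on every array with peptide.

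Among 7 other JAK and STAT genes measured, 1 rose and 3 fell in WT N4 relative to WT UN cells, against 40.7% of all genes past the test. Stat3 rose by 0.44 (limma adjusted p = 0.0495), with further probe sets at -0.54, -0.30 and 0.69 that did not pass. Jak1, the partner kinase of JAK3, fell by 1.01, Tyk2 by 0.82 and Stat2 by 1.26. A second probe set of Tyk2 differed by -0.17 and did not pass. None of the 7 passed in either knockout relative to WT N4 with limma (1 at an unadjusted p under 0.05 in p50 cRel DKO N4 and 2 in PKC theta KO N4), and Jak2 differed by -1.07 in p50 cRel DKO N4 relative to WT N4 cells (limma adjusted p = 0.0924). Of 16 further brakes on JAK-STAT signalling, 4 rose and 5 fell in WT N4 relative to WT UN cells. Cblb, a ubiquitin ligase, rose by 1.22, while Pias1, which inhibits STAT proteins, fell by 1.10, Usp18, which damps interferon signals, fell by 2.28 and Sh2b3, an adaptor, fell by 1.66. A second probe set of Sh2b3 differed by -0.46 and a further one of Cblb by 0.53, neither past the test. None of the 16 passed limma's test in either knockout relative to WT N4 cells (0 at an unadjusted p under 0.05 in p50 cRel DKO N4 and 2 in PKC theta KO N4).

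Of 30 genes known to respond to IL-2 or STAT5 in T cells, all measured, 17 rose and 5 fell in WT N4 relative to WT UN cells, where 17.2% of all genes were called higher and 23.5% lower, with a median of 0.87 against -0.10 over all genes. This list too was chosen with earlier results of these data known, so its counts and median are descriptions only. Lif rose by 4.13, Il2ra by 3.81 and Prf1, which encodes perforin, by 2.54, while Bcl6, which encodes a repressor, fell by 3.11. Second probe sets of Lif, Il2ra and Bcl6 moved the same way and passed, while that of Prf1 differed by 0.57 and did not pass. The Bcl6 fall stood beside the lower B cell marker sum of WT N4 samples (1162 to 3926, against 45503 to 66168 in WT UN), whose part was not tested. None passed in PKC theta KO N4 relative to WT N4 cells with limma, where 0.024% of all genes did (5 at an unadjusted p under 0.05). In p50 cRel DKO N4 relative to WT N4 cells Prf1 rose by 2.28 (limma adjusted p = 0.00253) and Ahr, a ligand-activated transcription factor, fell by 1.65 (limma adjusted p = 0.0227), where 0.519% of all genes passed, and the median of the 30 was -0.44. A second probe set of Prf1 differed by 0.10 and a second one of Ahr by -0.22 in that comparison, neither past the test. Il2ra and Il2rb are also counted among the cytokines and receptors.

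Over the 8 arrays, the genes whose levels ran most like Cish were Tnfsf14 (Pearson r = 0.988), Rundc3b (0.987) and Sirt5 (0.986). Most like Socs3 were Pkp2 (0.985), Gatm (0.978) and Kdm3a (0.969), and most like Socs2 were Lysmd1 (0.955), Pmf1 (0.947) and Tspan33 (0.942). The 8 arrays share their groups and scaling, so these are descriptions of 4 groups more than of 8 independent points.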

How the data were processed

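Affymetrix mouse arrays were analysed from the deposited table of intensity values, 1 linear signal per probe set, which the authors produced in GCOS 1.4 with the MAS5 algorithm (per the submitters' processing notes). Every array has a 2% trimmed mean of 500 in the values themselves, the mark of global scaling. Of 45101 probe sets, 64 were controls and left out, 34945 had 1 symbol, 932 several and 9160 none in the annotation used here, and 34741 symbols were updated through RefSeq genes of GRCm38.p6. Groups were taken from sample titles.

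Values were set to log2(signal + 16). Probe sets with a mean under the 40th percentile (5.38) were left out, which kept 27022, and the brightest probe set stood for each of 12520 genes. All 8 arrays entered 1 limma model (version 3.58.1, R 4.3.3; lmFit, eBayes with trend, 4 residual degrees of freedom) with Benjamini-Hochberg adjustment and a threshold of 0.05. The script was tested on simulated data. The 9 genes are all named. Of each pathway list, up to 4 genes with the lowest p were named, 2 where none passed. For the 3 genes with the widest range of group means, the 3 genes with the highest Pearson r are named. The genes and lists were chosen with earlier results of these data known. Promoter windows came from RefSeq tables and were searched for motifs by exact letters. Alternatives were other pseudocounts, filters and normalizations, no trend, all or averaged probe sets, the compared arrays alone, a replicate block and each array left out.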

Additional observations from a re-analysis of the deposited data

How the results depend on the processing

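Over the 6 comparisons, 8 differences of the 9 genes passed the test, and of 152 alternative values for them 124 kept both direction and call and 1 turned. The 3 Cish rises kept their call in every alternative but 1, p50 cRel DKO N4 against WT UN without p50 cRel DKO N4 replicate 1. Cish differed by 1.72 to 3.50 between WT N4 and WT UN with an array left out. Genes changed between p50 cRel DKO N4 and PKC theta KO N4 cells (54, or 0.431%) numbered 28 without the filter, 17 without the trend and 98 with the 4 arrays alone. With all probe sets fitted, 35 of the 27022 probe sets passed there (0.13%). Between p50 cRel DKO N4 and WT N4 cells (65) they numbered 36 after median centring, 35 without the trend and 13 to 77 with an array left out. Between PKC theta KO N4 and WT N4 cells (3) they numbered 1 without the filter, with a pseudocount of 1 or with quantile normalization, 0 without the trend and 0 to 5 with an array left out. Against WT UN, the counts were 7705 with all probe sets fitted for p50 cRel DKO N4 (4917 otherwise, 3229 to 4987 with an array left out), 8142 for PKC theta KO N4 (5078, 3761 to 5002) and 7939 for WT N4 (5101, 3546 to 5124).

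Of the 9 genes, the count changed between p50 cRel DKO N4 and WT N4 cells (1) was 0 with all probe sets fitted, median centring, no trend or the 4 arrays alone, and 0 to 1 with an array left out. Against WT UN, the count was 2 after median centring for p50 cRel DKO N4 (5, and 2 to 5 with an array left out), 2 with averaged probe sets for PKC theta KO N4 (1, and 1 to 3), and 3 with averaged probe sets and 2 with quantile normalization for WT N4 (1, and 1 to 3). Quantile normalization moved the share of higher calls between WT N4 and WT UN to 52.6% and median centring to 61.1%, against 42.3% otherwise, and the median of all genes to 0.09 and 0.30, against -0.10. For PKC theta KO N4 against WT UN the shares were 51.8% and 59.8%, against 40.7%, and for p50 cRel DKO N4 against WT UN they were 52.3% and 59.4%, against 42.0%.

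Direction turned as follows. With quantile normalization, p50 cRel DKO N4 minus WT UN was -0.011 for Pim1 and -0.0074 for Pim2, PKC theta KO N4 minus WT UN was -0.021 for Pim2, p50 cRel DKO N4 minus PKC theta KO N4 was 0.014 for Pim2, and WT N4 minus WT UN was -0.045 for Stat5b. With averaged probe sets, PKC theta KO N4 minus WT UN was 0.15 for Stat5a and 0.41 for Stat5b, p50 cRel DKO N4 minus WT UN was 0.058 for Stat5b, and PKC theta KO N4 minus WT N4 was 0.0052 for Pim1. With median centring, PKC theta KO N4 minus WT UN was 0.25 for Stat5a and 0.24 for Stat5b. With an array left out, p50 cRel DKO N4 minus PKC theta KO N4 ranged from -0.054 to 0.26 for Jak3 and -0.30 to 0.25 for Pim2. PKC theta KO N4 minus WT N4 ranged from -0.053 to 0.063 for Jak3, -0.20 to 0.093 for Pim1, -0.40 to 0.15 for Pim2, -0.34 to 0.033 for Socs1, -0.19 to 0.59 for Socs2 and -0.86 to 0.42 for Socs3. For p50 cRel DKO N4 minus WT N4 the range was -0.049 to 0.26 for Jak3 and -0.33 to 0.040 for Pim2. For p50 cRel DKO N4 minus WT UN it was -0.046 to 0.42 for Pim2 and -0.30 to 0.34 for Socs1, for PKC theta KO N4 minus WT UN it was -0.061 to 0.48 for Pim2 and -1.72 to 0.074 for Socs2, and for WT N4 minus WT UN it was -0.035 to 0.059 for Stat5b. The cause of these changes was not tested, and none of the turned values passed the test.

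Sample titles number only the second array of each group (Erep 2), and the array without a number was taken as number 1. The labels name no shared litter, batch or day. Deviations of same-numbered arrays correlated between groups at 0.25 to 0.58 over genes, which with 2 numbers leaves unsettled if the arrays were paired. With a replicate block, genes changed numbered 152 between the knockouts and 200 between p50 cRel DKO N4 and WT N4 cells, and the count of the 9 genes was 1 between the knockouts (Stat5a), 2 for p50 cRel DKO N4 against WT N4 (Stat5a and Stat5b), 6 for p50 cRel DKO N4 against WT UN (Jak3 added, limma adjusted p = 0.0369), 3 for PKC theta KO N4 against WT UN (Cish, with Socs1 at 0.0487 and Socs3 at 0.0112) and 4 for WT N4 against WT UN (Cish, with Socs1 at 0.0136, Socs3 at 0.0354 and Pim2 at 0.0142).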
